A study of Mus musculus with 134 samples.

Results

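The expression of the 9 genes that write, maintain, oxidise and remove DNA methylation, Dnmt1, Uhrf1, Dnmt3a, Dnmt3b, Dnmt3l, Tet1, Tet2, Tet3 and Tdg, was followed through mouse embryonic stem cell (mESC) libraries. They were taken by name from the 25209 genes of the bulk count tables, and all 9 were also found in both single-cell tables. The bulk data were 54 libraries from 27 conditions, each in duplicate. The single-cell data were 384 cells of 10 H3K27me3 experiments and 368 cells of 6 H3K4me3 experiments. By the study's account the cells were ES-E14TG2a, an mESC line kept in serum and LIF.

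By their description, groups differed in how the library was made, except for 2 knockout (KO) clones and the position of the single cells. The level of the purine salvage gene Hprt also differed between kinds of unedited library, as given below, so a single cell stock is not certain. In vitro libraries came from purified total RNA. An oligo-dT primer started the reverse transcription, and Tn5 cut the mRNA/cDNA hybrid. They varied Tn5 (at 25, at 50 or at 100 ng/µl), the amount of RNA (300 ng, 3 ng or 30 pg), or the temperature (16 °C or 37 °C) and the time (5, 10, 15 or 30 min). Ligation-based RNA-seq, from poly-A RNA with random primers, served as the conventional method. SET-seq libraries were made in the same way as the in vitro ones (37 °C, 5 min), but from the cytoplasmic RNA left after bead-bound nuclei were taken out of 10, 100, 1000 or 10000 cells. In the co-assay, those nuclei were profiled with an H3K4me3 or an H3K27me3 antibody, starting from 100, 1000 or 10000 cells. By the study's account, Aebp2 KO1 and KO2 are clones of the same line made by CRISPR/Cas9 with a different guide each. They were compared with the 6 unedited H3K27me3 co-assay libraries, called WT here. The KO labels give no number of cells, while WT holds libraries of 100, 1000 and 10000 cells. Aebp2 is a cofactor of Polycomb repressive complex 2, which writes H3K27me3. Each KO line is thus 1 clone, and its 2 libraries come from separate experiments by the study's account. In the single-cell experiments, mESCs divided beside a bead that carried Wnt3a for about 12 h, and the 2 daughter cells were picked by hand as proximal or distal to the bead.

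Methyl groups on cytosines of CpG pairs are placed on unmethylated DNA by the de novo enzymes Dnmt3a and Dnmt3b, helped by Dnmt3l, which has no catalytic activity of its own. After replication, Uhrf1 binds the half-methylated CpG and brings Dnmt1, which copies the mark to the new strand. Tet enzymes oxidise the methylated cytosine, and Tdg cuts out the most oxidised forms so that base excision repair can restore cytosine. In serum and LIF, mESCs are known for high levels of Dnmt3l and for using Tet1 and Tet2 rather than Tet3.

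Libraries differed widely in depth, and some stood apart. Total counts ranged from 235040 to 21520982 per library, and the precursor rRNA Rn45s took 1.54% to 84.6% of them. Rn45s was removed before CPM, counts scaled to the same total in each library, were calculated, which left 188275 to 16888686 counts. The shallowest library was the second of 10 cells in SET-seq. In the Tn5 series, the first libraries of the 3 amounts stood apart from the second ones. Pluripotency genes, which define mESCs, had summed levels of 2285 to 6929 CPM over 8 genes in all bulk libraries.

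Of the 9 genes, 8 had enough counts to be followed, and Tdg did not. Tdg held 28 read pairs in all 54 libraries together, was at 0 in 40 of them and never had more than 5. Dnmt1, the most counted, held 145067. The authors' counting left out reads that map to several places, and the exons of Tdg are copied: 88.2% of its exon bases match other loci of mm9 at 95% identity or more, and 85.6% lie in identical runs of at least 50 bases. Tdg is on chromosome 10 from 82092583 to 82113544 on the plus strand, with 10 exons. Its intronless copies lie on chromosomes 10, 15 and 7 and, over 2 exons, on chromosome 19, and no gene of the tables is annotated there. The exon below is shown because it is found in full at other places. The coding exon of 242 bases at chr10:82104061-82104302 (mm9, plus strand) is repeated with 0 differences at chr10:41774744-41774985 and chr7:83390457-83390698, both on the minus strand. At chr15:82347041-82347282, on the plus strand, it has 1 difference, which is in capitals.
Tdg exon: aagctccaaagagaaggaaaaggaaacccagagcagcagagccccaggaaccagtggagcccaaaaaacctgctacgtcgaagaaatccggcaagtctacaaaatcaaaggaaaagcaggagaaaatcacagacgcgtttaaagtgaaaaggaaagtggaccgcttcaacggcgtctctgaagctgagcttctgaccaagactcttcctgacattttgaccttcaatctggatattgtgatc
Chromosome 15 copy: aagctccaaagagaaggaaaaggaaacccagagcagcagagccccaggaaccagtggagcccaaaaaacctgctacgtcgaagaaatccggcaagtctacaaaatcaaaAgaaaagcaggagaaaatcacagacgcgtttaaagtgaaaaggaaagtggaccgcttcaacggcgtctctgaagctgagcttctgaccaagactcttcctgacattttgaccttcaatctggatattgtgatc
The RNA level of Tdg can therefore not be told from these counts.

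Copies also touched other genes. For Uhrf1 (chromosome 17, 56442760 to 56462909, plus strand, 18 exons), 73.8% of the exon bases match elsewhere and 47.5% lie in identical runs, mainly at a copy on chromosome X. For Dnmt3b (chromosome 2, 153475185 to 153513466, plus strand, 24 exons), these shares were 21.4% and 15.9%, from a duplicate of 8 exons on the same chromosome. Levels of both genes are thus uncertain. Dnmt1 (chromosome 9, 20711650 to 20764332, minus strand), Dnmt3l (chromosome 10, 77505032 to 77526367, plus strand), Tet2 (chromosome 3, 133126641 to 133207354, minus strand) and Tet3 (chromosome 6, 83312368 to 83406386, minus strand) had no such match. In Dnmt3a (chromosome 12, 3806980 to 3914443, plus strand) and Tet1 (chromosome 10, 62267318 to 62350072, minus strand) it covered 0.503% and 1.39%. All coordinates are those of mm9.

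Levels were compared between genes as RPKM, that is CPM per kilobase of exon. At 37 °C in vitro, Dnmt3l, the maintenance gene Dnmt1 and its partner Uhrf1 were the highest, at 110 ± 4.90, 93.5 ± 2.75 and 89.5 ± 7.48 RPKM (SD, n = 8). The ranges of Dnmt1 and Uhrf1 overlapped, and that of Dnmt3l lay above both. Tet2 followed at 25.4 ± 2.51 RPKM, then Dnmt3b at 15.0 ± 1.36 and Tet1 at 12.8 ± 1.11, which overlapped. Dnmt3a was lower, at 3.68 ± 0.705 RPKM, and Tet3 was close to the floor, at 0.314 ± 0.0518. Tet3 had 1518 counts over all libraries and was at 0 in 4 of them.

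The order differed between kinds of library. In the H3K27me3 co-assay, Uhrf1 led at 137 ± 15.4 RPKM (SD, n = 6). Dnmt3l (41.2 ± 9.78), Dnmt1 (35.6 ± 5.07), Tet2 (31.2 ± 2.61) and Tet1 (27.03 ± 2.08) came next, each with a range that overlapped its neighbour's. In the ligation-based libraries the order was Uhrf1 (125 ± 6.61), Dnmt1 (103 ± 0.602), Tet2 (56.9 ± 1.05), Tet1 (42.4 ± 1.40) and Dnmt3l (30.5 ± 2.20), with n = 2 and no overlap between neighbours. Both KO clones had Dnmt3l on top, at 272 ± 20.3 RPKM in KO1 and 265 ± 23.2 in KO2 (n = 2 each). Dnmt3a reached 23.3 ± 0.470 and 18.9 ± 0.0518 RPKM in the clones. It was still the least of the methyltransferases there, below Dnmt3b at 32.8 ± 2.84 and 36.0 ± 4.66 RPKM. Tet3 had few counts in all kinds of library, and Tdg is not ranked, since its exons are copied and multi-mapped reads were left uncounted.

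Ratios between genes of the same library, which do not depend on its total counts, also differed. Dnmt3a stood at 0.215 of Dnmt3b in RPKM in WT (median, range 0.168 to 0.332), and at 0.714 in KO1 and 0.530 in KO2. At 37 °C in vitro this ratio was 0.259. Dnmt3a to Dnmt1 was 0.0699 in WT, 0.303 in KO1 and 0.269 in KO2. For Tet1 to Tet2, the medians were 0.833 in WT (0.754 to 1.05), 1.72 in KO1, 1.20 in KO2 and 0.495 at 37 °C in vitro. Uhrf1 to Dnmt1 was 4.16 in WT, 2.37 in KO1, 3.45 in KO2 and 0.955 at 37 °C in vitro.

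The question of the KO libraries was which genes change without Aebp2. Aebp2 itself, counted over the whole gene, was at 15.7 and 15.0 CPM in KO1, 49.7 and 30.2 in KO2, and 34.7 to 76.0 in the 6 WT libraries. KO1 was below all WT libraries, while KO2 overlapped them. The fall was −1.07 on the log2 scale (SE 0.188, edgeR adjusted p = 0.000336). Such counts do not read the edited site. A further gene set these libraries apart: Hprt, a purine salvage gene that the ES-E14TG2a line is known to lack, was at 0, 2.14, 0 and 0 CPM in the KO libraries, 0 to 1.29 CPM in all in vitro libraries, and 273 to 485 CPM in the co-assay. Clone against WT and one cell stock against another can therefore not be told apart in this comparison. The 4 KO libraries also held more Rn45s (48.8% to 56.7% against 21.9% to 29.7%) and were counted with featureCounts 2.0.1 rather than 2.0.0, and the part of these in the results was not tested.

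All 3 genes of de novo methylation rose in the KO clones, most of all Dnmt3a and Dnmt3l, and both maintenance genes rose less. Tet2 and Tet3 fell and Tet1 rose slightly. Thus 8 of the 8 genes tested passed an adjusted p of 0.05, where 51.0% of the 11446 genes tested did. There were 6 that rose, against 24.6% of all genes, and 2 that fell, against 26.4%.

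Dnmt3a, one of the 2 de novo enzymes, was at 235 and 229 CPM in KO1 and 188 and 189 CPM in KO2. In WT it was at 20.6 and 25.6 CPM from 100 cells, 22.2 and 29.0 from 1000 cells, and 33.9 and 22.8 from 10000 cells. Every KO library lay far above every WT library, and the change was 8.44-fold (log2 3.08, SE 0.135, adjusted p = 1.50e-09). Dnmt3l, the cofactor, was at 765, 689, 664 and 751.8 CPM in the KO libraries and 93.0 to 154 CPM in WT. This was a 6.79-fold rise (log2 2.76, SE 0.0866, adjusted p = 1.20e-10), again without overlap. Dnmt3b, the other de novo enzyme, stood at 133, 151, 170 and 141 CPM in KO and 41.8 to 55.2 CPM in WT, which is 3.09-fold (log2 1.63, SE 0.124, adjusted p = 1.86e-07).

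The promoters of these 3 genes are shown because the genes rose together. Each is the 250 bases before the first RefSeq start of the gene (GRCm38.p6, plus strand), with CpG, the substrate of these enzymes, in capitals. The motif searched was CG, which reads the same on both strands.
Dnmt3a, chr12:3806730-3806979: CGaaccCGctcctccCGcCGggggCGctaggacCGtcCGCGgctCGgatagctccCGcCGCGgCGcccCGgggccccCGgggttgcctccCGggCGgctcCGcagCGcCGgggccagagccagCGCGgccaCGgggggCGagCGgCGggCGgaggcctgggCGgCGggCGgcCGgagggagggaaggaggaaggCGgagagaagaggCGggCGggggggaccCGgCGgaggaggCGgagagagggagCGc
Dnmt3b, chr2:153649199-153649448: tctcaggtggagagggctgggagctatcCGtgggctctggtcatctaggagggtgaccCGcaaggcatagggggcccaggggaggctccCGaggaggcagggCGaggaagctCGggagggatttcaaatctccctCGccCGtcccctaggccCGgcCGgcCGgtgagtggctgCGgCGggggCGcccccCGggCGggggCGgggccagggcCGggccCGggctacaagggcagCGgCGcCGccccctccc
Dnmt3l, chr10:78042037-78042286: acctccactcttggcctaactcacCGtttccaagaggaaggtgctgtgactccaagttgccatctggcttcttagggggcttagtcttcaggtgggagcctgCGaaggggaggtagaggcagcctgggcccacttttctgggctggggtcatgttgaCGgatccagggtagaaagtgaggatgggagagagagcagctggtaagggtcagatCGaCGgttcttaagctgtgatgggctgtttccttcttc
The Dnmt3a promoter shown holds 38 CpG at 82.4% GC, that of Dnmt3b 21 at 75.2% and that of Dnmt3l 5 at 55.6%. As many or more CpG were found in 1.88%, 16.4% and 55.6% of all 32851 promoters, whose median is 6 and of which 92.1% hold at least 1. Dnmt3a has 2 further starts, with 40 and 15 CpG (80.8% and 73.6% GC), and Dnmt3l has 2, with 4 and 3 CpG, while Dnmt3b has 1 start in all. Among the other genes Tet2 had the most, 51 CpG, which 0.07% of promoters reached, and Tdg, Tet3 and Tet1 had 19, 17 and 15. For Dnmt1 the 3 starts in RefSeq held 2, 7 and 26 CpG, and for Uhrf1 the 2 starts held 10 and 30. All 9 genes were matched by symbol, with 16 promoters.

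Maintenance genes moved less. Dnmt1, the enzyme that copies methylation at replication, was at 461 and 518 CPM in KO1, 421 and 470 in KO2 and 181 to 259 CPM in WT, with no overlap (log2 1.09, SE 0.0962, adjusted p = 6.99e-07). Uhrf1, which recruits it, was at 621, 718, 830 and 945 CPM in KO and 427 to 566 CPM in WT, again with all KO libraries above WT. Its change was 0.66 on the log2 scale (SE 0.0754, adjusted p = 7.01e-06).

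The Tet genes did not move as 1 group. Tet2 was at 227, 210, 181 and 190 CPM in KO and 246 to 308 CPM in WT, and fell by 0.48 on the log2 scale (SE 0.0836, adjusted p = 0.000323). Tet1 was at 550 and 614 CPM in KO1, 343 and 351 in KO2, and 362 to 446 in WT. Only KO1 was above the WT range, and the change over both clones was 0.24 (SE 0.0785, adjusted p = 0.0197). Against WT, KO1 alone had 0.55 and KO2 alone −0.070 (adjusted p = 0.652). The Tet1 call was also lost without KO1 replicate 1 (adjusted p = 0.0635), KO1 replicate 2 (0.102), KO2 replicate 2 (0.0625) or the first WT library of 10000 cells (0.0605). Tet3 had 0 and 1 counts in KO1 and 6 and 2 in KO2. In WT it had 25 and 0 counts from 100 cells, 43 and 62 from 1000 cells, and 27 and 51 from 10000 cells. Its fall of 2.53 (SE 0.985, adjusted p = 0.0462) rested on these few counts and kept the call in 1 of 10 fits that left out a library, with log2 changes of −4.36 to −0.69.

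Since WT differed from KO in Hprt, the KO libraries were also set against the 37 °C in vitro libraries, which share the low Hprt level but come from total RNA. There Dnmt3a rose by 2.51 on the log2 scale, Dnmt3l by 1.30, Dnmt3b by 1.20, Tet1 by 1.31 and Uhrf1 by 1.26. Dnmt1 reversed, at −0.33 (adjusted p = 0.000393), and Tet2 was at −0.20 (adjusted p = 0.0494). In this comparison 67.3% of all genes passed, and Tet3 was too low to be tested. With SET-seq of 10000 cells without antibody as WT, where 67.6% of genes passed, Dnmt3a was at 4.12, Dnmt3l at 1.31, Dnmt3b at 0.86, Uhrf1 at 1.16 and Tet1 at 1.07. Dnmt1 then had a difference of 0.04 (adjusted p = 0.799) and Tet2 one of 0.0010 (adjusted p = 0.995). The rise of the 3 de novo genes, Uhrf1 and Tet1 was thus past the threshold with each of these sets of WT libraries, and its size was not the same. For Tet1, however, the call against the H3K27me3 co-assay was not kept by KO2 alone. The number of cells in KO is not known, so WT of 10000 cells alone was also used. On the log2 scale Dnmt3a was then at 3.12, Dnmt3l at 3.06, Dnmt3b at 1.75 and Dnmt1 at 1.00. Uhrf1 was at 0.98, Tet1 at 0.42 (edgeR adjusted p = 0.00133), Tet2 at −0.46 and Tet3 at −3.43. In this fit 5454 of 9523 genes passed. The part of cell number in the results was not tested. These comparisons share the KO libraries.

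The 2 clones were then compared with each other. Uhrf1 was lower in KO1 than in KO2 by 0.54 on the log2 scale (SE 0.119, adjusted p = 0.0250), and Tet1 was higher in KO1 by 0.62 (SE 0.125, adjusted p = 0.0155). These 2 of 8 genes passed, against 4.16% of all genes. With 2 libraries per clone, the lack of overlap between clones in both genes is no further support for these calls. For Uhrf1 the call held in 4 of 10 fits that left out 1 library, and for Tet1 in 7 of 10. Tet1 lost it without KO1 replicate 1 (adjusted p = 0.0902), KO1 replicate 2 (0.156) or KO2 replicate 2 (0.0573). Uhrf1 lost it without the same libraries (0.237, 0.116 and 0.219) and without either WT library of 1000 cells (0.0583 and 0.0533) or the first of 10000 cells (0.0583). For Dnmt3a the difference between clones was 0.17, with a 95% interval of −0.21 to 0.56, and for Dnmt3l −0.09, with −0.35 to 0.16. Dnmt1 differed by 0.0031, with an interval of −0.29 to 0.30. Aebp2 itself was lower in KO1 than in KO2 by 1.49 (SE 0.322, adjusted p = 0.0221).

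Partners of these genes were called in both directions between KO and WT. Over all genes, 24.6% rose and 26.4% fell past the threshold, 51.0% together, with a median change of −0.03. The counts of each list stand beside these shares. Among 10 partners of maintenance methylation, 5 rose and 1 fell, with a median of 0.28. Usp7, which stabilises Dnmt1 and Uhrf1, rose by 1.16, Hells, a remodeller needed for methylation, by 0.38, and Ehmt2, an H3K9 methyltransferase, by 0.38. Prdm14, a repressor of the de novo enzymes in mESCs, fell by 0.86. Of 6 genes that bind methylated CpG, Mbd1 rose by 1.25 and Mbd3 fell by 0.77. Of 15 TET partners and base excision repair genes, 13 were tested, 4 rose and 4 fell, with a median of −0.28. Ogt, a glycosyltransferase that binds Tet proteins, rose by 1.28 and Cxxc5 by 1.14, while the repair polymerase Polb fell by 0.98 and the glycosylase Smug1 by 0.85. In the methyl donor cycle 4 of 8 genes rose and 1 fell, with a median of 0.52. Mtr, methionine synthase, rose by 1.34, and Shmt2 and Mthfd1, of folate metabolism, by 0.68 and 0.65.

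Lists of cell state were counted in the same way, beside the same 24.6% of all genes that rose and 26.4% that fell. Of 8 pluripotency genes, 0 rose and 5 fell, with a median of −0.58. Klf4 fell by 2.47, Tdgf1 by 0.88, Zfp42 by 0.76 and Nanog by 0.61. Their summed level was 2721 to 3036 CPM in KO1, 2285 to 2472 in KO2, 3645 to 4457 in WT and 2696 to 2894 at 37 °C in vitro. Of the markers of primed epiblast, a later state in which Dnmt3a and Dnmt3b are known to be high, 4 of 5 were tested and 2 rose, Lef1 by 6.10 and Otx2 by 2.76. Their summed level was 4.74 to 26.0 CPM in WT, 111 to 117 in KO1, 48.9 to 62.6 in KO2 and 181 to 203 at 37 °C in vitro. Of 4 markers of a 2-cell-like state 2 were tested, Zscan4c and Zscan4d, which rose by 3.84 and 3.52. The 4 together summed to 15.4 to 35.6 CPM in WT, 286 to 349 in KO1 and 163 to 221 in KO2, with 3.86 to 8.79 at 37 °C in vitro. Markers of primitive endoderm and of fibroblast feeders summed to at most 18.6 CPM in these libraries. In bulk libraries, fewer cells of a state and less RNA per cell cannot be told apart, and the part of these states in the changes of the 9 genes was not tested. Among S-phase genes, 4 of 12 rose and 3 fell: Mcm7, Mcm4 and Mcm3, of the replicative helicase, rose by 1.03, 0.85 and 0.64, and Rpa2 fell by 0.59. Of 12 germline genes that DNA methylation is known to silence, 7 were tested, and Dazl alone passed, with a rise of 0.79. Between the clones, where 4.16% of all genes passed, 5 of the 12 S-phase genes were lower in KO1 and 0 higher, among them Mcm4 (−0.75), Mcm6 (−0.74), Rrm2 (−0.69) and Mcm7 (−0.68). Of the pluripotency genes, 2 of 8 were higher in KO1, Sox2 by 1.17 and Nanog by 0.63, and 0 lower. Zfp57, a partner that keeps methylation at imprinted regions, was lower (−1.26), as was the base excision repair enzyme Apex1 (−0.79). The part of these in the differences of Uhrf1 and Tet1 between clones was not tested.

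Between tagmentation at 37 °C and at 16 °C, 7 of the 8 genes tested differed, against 59.9% of all 12297 genes, although the RNA was the same kind. At 37 °C, Tet1, Tet2, Dnmt3l and Dnmt3a were higher and Dnmt3b, Uhrf1 and Dnmt1 lower. These are 4 genes against a background of 29.2% higher, and 3 against 30.7% lower. Dnmt3b had 87.1 to 113 CPM at 16 °C and 56.0 to 76.9 CPM at 37 °C, with no overlap of the 8 libraries each (log2 −0.58, SE 0.0665, adjusted p = 2.47e-08). Tet1 was at 118 to 151 CPM and 168 to 209 CPM, also without overlap (0.47, SE 0.0603, adjusted p = 1.71e-07). Dnmt3l, at 222 to 260 and 281 to 321 CPM, rose by 0.36, and Dnmt1, at 664 to 778 and 564 to 617 CPM, fell by 0.26. For Tet2 the change was 0.32 and its ranges, 173 to 215 and 210 to 284 CPM, overlapped. Uhrf1 fell by 0.43. Dnmt3a rose by 0.24 (adjusted p = 0.0353), with overlapping ranges of 23.1 to 37.8 and 25.2 to 49.4 CPM. Its call was lost in 7 of 16 fits without 1 library, most of all without the first library of 37 °C for 5 min (log2 0.08, adjusted p = 0.557). Tet3 differed by 0.23, with a 95% interval of −0.30 to 0.77. The change of Dnmt3b, 1.49-fold, was the largest of the 7. Rn45s took 33.0% to 40.7% of counts at 37 °C and 11.8% to 25.1% at 16 °C. Of 8 pluripotency genes, 1 was higher at 37 °C and 4 were lower. Of 4 primed epiblast markers tested, 2 were higher and 0 lower, and of 7 germline genes tested, 5 were higher and 0 lower. The part of these in the differences of the 7 genes was not tested.

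Tagmentation for 30 against 5 min moved none of the 8 genes past the threshold in edgeR or DESeq2, where 5.99% of all genes passed and 2358 genes had an unadjusted p below 0.05. For Uhrf1, however, the change with time differed between the temperatures, with 2 libraries per condition. From 5 to 30 min, Uhrf1 went from 376 and 409 CPM to 490 and 516 at 16 °C, and from 377 and 342 CPM to 297 and 300 at 37 °C. The difference between these changes was −0.66 on the log2 scale (SE 0.145, adjusted p = 0.00927, edgeR interaction term). This term passed for 346 of the 12297 genes tested.

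For Tn5 amount, 0 of the 8 genes passed the threshold (100 against 25 ng/µl, 0% of all genes passed in edgeR, 84 genes at an unadjusted p below 0.05, and 0 of 8 in DESeq2). At 25, 50 and 100 ng/µl, Tet2 had 219, 206 and 192 CPM in first libraries and 63.7, 54.04 and 56.1 CPM in second ones. Dnmt3a likewise had 61.7, 68.1 and 59.5 CPM against 35.3, 38.7 and 32.8 CPM, whereas Dnmt3l was lower in the first libraries (278, 329 and 311 CPM) than in the second (343, 470 and 413 CPM). For Tet2 and Dnmt3a, first and second libraries of an amount differed by more than the amounts did. Within both replicate numbers Uhrf1 was lower with 100 than with 25 ng/µl, at 245 against 327 CPM and 268 against 319 CPM, and so was Dnmt3b, at 49.6 against 68.1 CPM and 26.2 against 34.4 CPM. With the replicate block, edgeR gave adjusted p = 0.278 for Uhrf1 (log2 −0.27), 0.220 for Dnmt3b (−0.37) and 0.292 for Dnmt3l (0.27), while their unadjusted p were 0.0123, 0.00520 and 0.0147. With 300 ng and 3 ng of RNA, 0 of 8 genes passed, as did 0% of all genes (1558 at an unadjusted p below 0.05 in edgeR, and DESeq2 called 1 of the 8, Uhrf1). Uhrf1 was at 283 and 371 CPM with 300 ng and 550 and 563 CPM with 3 ng, and Tet1 at 118 and 110 against 223 and 208 CPM. The log2 changes from 300 ng to 3 ng were 0.67 for Uhrf1, 0.82 for Tet1, 0.50 for Tet2, −0.62 for Dnmt1 and −0.51 for Dnmt3b. Without either 30 pg library, which share the estimate of spread, they were 0.64 for Uhrf1, 0.80 for Tet1 and −0.64 for Dnmt1. For Tet2 they were then 0.48 and 0.47, and for Dnmt3b −0.53 and −0.54.

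At 30 pg the libraries held few genes. Dnmt3l was lower than with 300 ng by 1.35 on the log2 scale (SE 0.299, adjusted p = 0.0320), while the median of all genes was lower by 0.44 and 22.7% of genes passed. It was at 117 and 220 CPM, against 375 and 312 CPM with 300 ng. The call was lost without either library of 300 ng (adjusted p = 0.168 and 0.145) or of 3 ng (0.0857 and 0.0875). For Dnmt3b, at 97.3 and 238.1 CPM against 60.4 and 68.4 CPM, the 30 pg libraries differed more from each other than the amounts did. Tet3 had 0 counts in both.

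Between in vitro tagmentation and ligation-based RNA-seq, the Tet genes and Dnmt3l differed strongly. All 3 Tet genes were lower in vitro, Tet3 by 1.93 on the log2 scale, Tet1 by 1.68 (SE 0.0645, adjusted p = 4.25e-19) and Tet2 by 1.04. Dnmt3l was 3.89-fold higher (SE of the log2 change 0.0768, adjusted p = 6.94e-19), and Dnmt1 higher by 0.28. So 5 of 8 genes passed, against 81.0% of all genes. Tet1 was at 595 and 624 CPM by ligation and 118 to 209 CPM in the 16 in vitro libraries, and Dnmt3l at 77.3 and 85.6 CPM against 222 to 321 CPM. Neither range touched the other. The remaining genes did not pass, with differences of 0.01 for Dnmt3b (95% interval −0.14 to 0.16), 0.02 for Uhrf1 (−0.11 to 0.15) and 0.14 for Dnmt3a (−0.07 to 0.35). When libraries were scaled by their totals alone, the call of Dnmt1 was lost (0.01, adjusted p = 0.876), and Dnmt3b (−0.26) and Uhrf1 (−0.25) passed as lower in vitro. Cell state markers differed too, with 2 of 8 pluripotency genes higher in vitro and 6 lower (median −1.01), such as Esrrb (−3.08), Tfcp2l1 (−2.17) and Nanog (−1.53). Of the primed epiblast markers 4 of 5 were tested, and Lef1 (5.12) and T (3.18) were higher in vitro and Otx2 (−1.06) lower. Their part in the differences of the Tet genes and Dnmt3l was not tested. Input (total against poly-A RNA), primers, method and the Hprt level (181 and 184 CPM by ligation) differ together here and cannot be told apart.

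SET-seq of 10000 cells had less Dnmt3a than the in vitro libraries of the same reaction. Dnmt3a was at 8.80 and 13.3 CPM in SET-seq and 49.4 and 25.2 CPM in vitro, and fell by 1.70 on the log2 scale (SE 0.376, adjusted p = 0.00416). Dnmt1 fell by 0.48 (adjusted p = 0.0462) and Tet3 rose by 1.53 (adjusted p = 0.0365). These 3 of 8 compare with 49.8% of all genes. Dnmt1 lost its call without either in vitro library (adjusted p = 0.280 and 0.241) or the second SET-seq library (0.208), and Tet3 without either in vitro library (0.132 and 0.0814). For Uhrf1 the difference was −0.12, with a 95% interval of −0.47 to 0.23. Both primed epiblast markers tested, of 5, were lower in SET-seq, Lef1 (−4.75) and T (−2.24). Of 8 pluripotency genes 3 were higher and 3 lower, among them Sox2 (−3.01), Klf4 (−1.44), Esrrb (1.86) and Tfcp2l1 (1.11), and their part in the fall of Dnmt3a was not tested. Cytoplasmic against total RNA and the Hprt level differ together here as well and cannot be told apart.

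For cell number in SET-seq without antibody, 0 of 8 genes passed (10 against 10000 cells, 0% of all genes in edgeR, 2051 at an unadjusted p below 0.05, and 0 of 8 in DESeq2). With 10 cells the pair of libraries disagreed: Tet2 was at 131 and 0 CPM, and Dnmt1 at 378 and 159 CPM. Without the first library of 10 cells, the log2 change was −1.94 for Dnmt1 and −1.52 for Tet1, and Tet2 was at 0 CPM in the library left. Dnmt3l also differed within pairs, at 388 and 122 CPM with 100 cells and 350 and 143 CPM with 1000 cells, but was at 279 and 244 CPM with 10000 cells.

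In the co-assay, 100 cells had more Dnmt3l, Uhrf1 and Tet1 and less Tet3 than 10000 cells, which is 4 of 8 genes against 21.0% of all. Dnmt3l was at 120, 113, 154 and 131 CPM with 100 cells and 87.6, 110, 94.5 and 94.9 CPM with 10000 cells (log2 0.59, SE 0.109, adjusted p = 0.00175), and the ranges did not overlap. Uhrf1 was at 544, 490, 505 and 519 against 463, 477, 438 and 427 CPM, also apart (0.36, SE 0.0646, adjusted p = 0.00140). The rise of Tet1 (0.30, adjusted p = 0.0476) and the fall of Tet3 (1.86, adjusted p = 0.0441) each kept the call in 2 of 12 fits that left out 1 library. Scaled by library totals, Dnmt3l and Tet3 alone passed. The antibody made no detectable difference: H3K27me3 against H3K4me3 libraries gave 0 of 8 genes and 0% of all genes (622 at an unadjusted p below 0.05, and 0 of 8 in DESeq2). The 95% interval of this difference was −0.18 to 0.02 for Uhrf1, −0.23 to 0.09 for Dnmt1 and −0.12 to 0.19 for Tet1.

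Compared side by side without a test, the co-assay and SET-seq without antibody also had unlike levels. With 10000 cells, Dnmt3l was at 279 and 244 CPM without antibody and 87.6 to 110 CPM in the co-assay. Tet1 was at 178 and 215 CPM against 358 to 377 CPM, and Dnmt1 at 423 and 401 CPM against 252 to 270 CPM. Dnmt3a, at 8.80 and 13.3 CPM without antibody, was at 17.3 to 33.9 CPM in the co-assay.

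Genes with the most similar pattern over the 27 condition means were named by Pearson's r of log2(CPM + 1), among 8747 genes with a mean of at least 10 CPM. They were Nectin2 (r = 0.9499) and Slc12a7 (0.948) for Dnmt1, Glud1 (0.875) and Yap1 (0.809) for Uhrf1, and Map4 (0.915) and Nup205 (0.914) for Dnmt3a. Dnmt3b was followed by Elovl6 (0.744) and Mtr (0.684), and Dnmt3l by Tubb5 (0.865) and Eif3c (0.796). For Tet1 they were Rfx7 (0.958) and Pcyt1b (0.945), for Tet2 Ppip5k2 (0.968) and Usp32 (0.897), and for Tet3 Mdm2 (0.833) and E2f8 (0.816). For Tdg, with its few counts, they were Cdca7 (0.630) and Lrpprc (0.572). No gene of the 9 had another of them as one of its 2 closest. Conditions of 1 kind share their RNA and method, so these values describe the kinds of library.

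In single cells the genes were seen in few cells each. A cell was kept when its detected genes numbered above 1000 and below 5000, which left 545 cells, 335 from H3K27me3 and 210 from H3K4me3 experiments. Their values are reads without molecular identifiers, on exons and introns, so that 1 molecule can give many reads. The H3K27me3 experiments 8 to 10 stood apart: Nanog had a read in 3.03% of their 165 cells, against 59.4% of the 170 cells of H3K27me3 experiments 1 to 7 and 67.1% of the 210 H3K4me3 cells, and Pou5f1 was in 0 of the 165 (an upper limit of 1.82%), 19.4% and 21.4%. Reads of these 2 pluripotency genes were thus rare or absent in such cells, and the other genes of that list are not given here. All 335 H3K27me3 cells had reads of Aebp2, at 16259 CPM in experiments 1 to 7 and 22059 CPM in 8 to 10, against 64.8% of H3K4me3 cells at 1235 CPM. Barcodes, 96 and 80 in the 2 tables with 80 in common, were reused between experiments and never repeated within 1.

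Over all 545 cells, Tet2 was the most often seen, in 47.2% of cells, followed by Dnmt3l in 33.0%, Tet1 in 25.0%, Uhrf1 in 24.2% and Dnmt1 in 22.2%. Dnmt3b was in 12.3%, Dnmt3a in 11.01%, Tdg in 6.79% and Tet3 in 6.24%. The median cell had reads of 1 of the 9 genes, the maximum was 7, and 91 cells (16.7%) had none. Without experiments 8 to 10 the first place went to Dnmt3l, in 45% of 380 cells (95% Wilson interval 40.1% to 50.0%), ahead of Tet2 in 35% (30.4% to 39.9%), Tet1 in 33.9% and Uhrf1 in 33.7%. Thinned to 20000 reads, which 497 of the 545 cells had, Tet2 was in 25.2%, Dnmt3l in 18.7%, Uhrf1 in 12.3%, Tet1 in 11.2% and Dnmt1 in 10.2% of cells. Intervals cover counting error only.

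The lead of Tet2 came from 3 experiments. It was seen in 77.8%, 100% and 97.9% of cells in H3K27me3 experiments 6, 8 and 9, and in 6.67% to 50.0% in the other 13. In the H3K27me3 experiments 8 to 10 together it was in 75.2% of cells, while Dnmt1 was in 3.03%, Uhrf1 in 2.42%, Dnmt3l in 5.45%, Tet1 in 4.24%, Dnmt3a in 1.21% and Tet3 in 0 of 165, which allows a share of up to 1.82%. In experiments 1 to 7 these shares were 31.8%, 31.2%, 39.4%, 28.8%, 18.2% and 9.41%, and Tet2 was at 36.5%. H3K4me3 cells were similar to the latter, with Dnmt1 in 29.5%, Uhrf1 in 35.7%, Dnmt3l in 49.5%, Tet1 in 38.1%, Tet2 in 33.8%, Dnmt3a in 12.9% and Tet3 in 8.57%. Dnmt3b differed less between these sets, at 9.41%, 14.5% and 12.9%, but 92.6% of its reads were in 1 cell.

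Tdg, though almost uncounted in bulk, was in 10.0%, 6.67% and 4.29% of cells of the 3 sets, with introns counted here.

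Daughter cells proximal and distal to the Wnt3a bead, by the position given in the study's list of cells and not in the labels, did not differ detectably. Of 278 proximal and 267 distal cells, Dnmt3l was in 31.7% and 34.5%, Tet2 in 48.2% and 46.1%, Dnmt1 in 23.0% and 21.3%, Uhrf1 in 24.8% and 23.6%, and Tet1 in 23.4% and 26.6%. Reads summed per position within 14 experiments gave 0 of 6 genes tested and 0% of 4885 genes in edgeR, blocked by experiment (180 at an unadjusted p below 0.05, and 0 of 6 in DESeq2). Dnmt3a, Tet3 and Tdg were too sparse to be tested. Proximal against distal, the 95% intervals of the log2 difference were −2.19 to 0.79 for Dnmt3l, −2.85 to 0.60 for Tet1, −3.33 to 1.45 for Dnmt1, −1.42 to 2.05 for Uhrf1 and −2.18 to 0.93 for Tet2. These intervals are wide, and differences inside them are not excluded.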

How the data were processed

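The bulk files hold counts of read pairs per gene, which the authors made by trimming with Trim Galore 0.6.4, alignment to mm9 with STAR 2.5.4b and featureCounts on RefSeq exons, without strand and leaving multi-mapped reads uncounted. The file headers name featureCounts 2.0.0 for 50 libraries and 2.0.1 for the 4 KO libraries. The single-cell files hold deposited read counts per gene and cell from zUMIs. Rn45s was removed from all counts, and CPM and RPKM were calculated from the rest.

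Bulk counts were tested with edgeR 4.0.16 (TMM, its filter on low counts, quasi-likelihood) and called at an adjusted p below 0.05 (Benjamini-Hochberg over all genes tested). Each fit used the libraries of its series. The code was run on simulated counts with known changes, independent libraries and the same spread for all genes. This checks the code and not how the fits do on pairs of libraries that disagree. KO was tested against the mean of the H3K27me3 WT conditions. Alternatives were DESeq2 1.42.0, its size factors, library totals, no filter, Rn45s kept, other WT libraries, 1 clone at a time, a replicate block, the rule of the study (unadjusted p below 0.05 and an absolute log2 fold change above 1), and each library left out. Where this left 1 library in a condition, it was assumed to vary like the others. P-values measure the spread between libraries, which may be technical.

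Deviations of libraries with the same replicate number were correlated at r of 0.626 to 0.739 in the 3 pairs of Tn5 amounts, so these numbers pair the libraries, as the data and not the labels show. In the other series at least 1 pair was below 0.1 or there was only 1 pair.

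Cells with more than 1000 and fewer than 5000 genes were kept. The position of each cell was taken from the study's list of cells, since the labels name experiments only. Reads were summed per experiment and position over at least 3 cells in each of 14 of 16 experiments, and tested with the experiment as a block. Doublets were not called, since cells were picked by hand per well. Copies were searched in mm9 with BLAST+ 2.17.0. Promoters are those of RefSeq in GRCm38.p6.

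The 9 genes and the lists were chosen with earlier results of these data known. Named genes are the 9, Aebp2, Hprt, at most the 4 called genes with the largest change of each list, and the 2 genes most similar to each of the 9. The values of 1 gene that this rule names are not reported here. Calculations used Python 3.11.15 and R 4.3.3. Libraries of histone marks were not analysed here.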

Additional observations from a re-analysis of the deposited data

Results flagged for a closer look

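Each value here is far from its group or differs between groups. Over single-cell experiments of 1 mark, Dixon's test was applied to 36 groups of shares or levels. Its cutoffs flag about 1 in 20 groups by chance only where values are normally distributed and equally precise. Here the experiments kept 4 to 62 cells, and 1 cell can hold most reads of a gene. The rate of chance flags is therefore not known, and the flags only point to values. Experiment 3 of H3K27me3 stood out most often: Dnmt3a was seen in 57.1% of its 14 cells (next highest experiment 25.0%) and Tet3 in 42.9% (13.3%), and Dnmt3l had 550.1 CPM (247), Uhrf1 307 CPM (145) and Tet1 303 CPM (48.9). Dnmt3b had 2688 CPM in H3K27me3 experiment 9 (75.6) and 100.2 CPM in H3K4me3 experiment 2 (6.83). Dnmt3a had 64.4 CPM in H3K4me3 experiment 6 (22.3), and Tet3 had 113 CPM in H3K4me3 experiment 2 (3.41). Tdg was in 71.4% of 7 cells of H3K27me3 experiment 1 (15.6%) and in 13.0% of the cells of H3K4me3 experiment 5 (4.26%), where it had 32.6 CPM (0.689).

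Of the differences between groups, the change of Uhrf1 from 5 to 30 min was lower at 37 °C than at 16 °C (a difference of −0.66 on the log2 scale, edgeR interaction, adjusted p = 0.00927). This interaction passed for 346 of the 12297 genes tested. The change from WT was lower in KO1 than in KO2 by 0.54 for Uhrf1 (−0.54, adjusted p = 0.0250) and higher by 0.62 for Tet1 (adjusted p = 0.0155).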

How the results depend on the processing

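Of the 8 genes called between KO and WT, 5 were called with SET-seq of 10000 cells as WT and 5 by the rule of the study. Directions turned for Dnmt1 with in vitro WT (−0.33), Tet1 in KO2 alone (−0.070) and Tet2 with SET-seq WT (0.0010). With 3 ng of RNA, DESeq2 called 1 gene instead of 0. With 30 pg, DESeq2 size factors gave 2, DESeq2 3 and no filter 3 genes instead of 1, and the replicate block gave 0. DESeq2 called 1 gene instead of 3 between SET-seq and in vitro, library totals 2 instead of 4 between cell numbers in the co-assay, and the fit without the experiment block 1 instead of 0, Dnmt3b, between proximal and distal cells. The cause of these changes was not tested. Leaving out 1 library changed the number called between KO1 and KO2, for 3 ng and for 30 pg, between SET-seq and in vitro, between 10 and 10000 cells, and in the co-assay. Such a fit has 1 library in a condition, so these counts are not read as results about the genes. The replicate block changed no other count by over 1.5 times, Tn5 amounts included, where 0 genes passed with it. Depth limits the values of Tet3, the 30 pg libraries, 10 cells and single cells. The exons of Tdg are copied and multi-mapped reads were left uncounted, and the part of this in its 28 bulk counts was not tested.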
